A study of Mus musculus with 6 samples.

Results

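The NF-kappaB transcription factor subunits and their inhibitors were read on 6 two-colour microarrays of mouse tissue RNA. The rule took every probe that the platform annotation names Nfkbiz, Nfkbia, Nfkbie, Nfkb1, Nfkb2, Rel, Rela or Relb. It found 7 probes among the 25344 of the array, 1 for each of 7 genes, and 18543 genes were named in all. Nfkb1 had no probe of that name and was not analysed here. The genes were chosen by their ratios on these same arrays, the large ratio of Nfkbiz toward SVF among them, so all values below are descriptions and carry no test.

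The arrays compared total RNA of testis, of epididymis, the duct in which sperm mature, and of the stromal vascular fraction (SVF), the mixed cells of fat tissue other than adipocytes. Every tissue pair had 2 arrays, between which Cy3 and Cy5 were exchanged, so 4 arrays carried each tissue. The series describes 3 RNA samples, 1 per tissue, and the arrays of a pair are repeat hybridisations of the same RNA. Neither the labels nor the series text give the strain, age and number of animals, any pooling, or the way the SVF was isolated. On each pair's first array Cy5 marked the tissue named first in the ratio. Values are log2 ratios, given for both arrays and as mean ± SD over n = 2 hybridisations, which leaves out the spread between animals. The log base and the direction of the ratio are not stated in the labels. They were read as log2 of Cy5 over Cy3. Read this way, testis exceeded SVF by the rule given next for 10 of 12 germ cell markers, against 20.7% of all named genes. The germ cell list was also chosen with earlier results known, so its count is no independent check and the direction remains an assumption. A gene was called higher in a tissue when both arrays of a pair gave at least 2-fold toward that tissue.

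NF-kappaB proteins are dimers of Rel family subunits that wait in the cytoplasm, bound by IkappaB inhibitors, until a signal from cytokine or Toll-like receptors has the inhibitor destroyed. The freed dimers enter the nucleus and bind kappaB sites of genes for cytokines, adhesion molecules and survival factors, and also of genes for their own inhibitors and subunits. Transcripts of several of these genes are therefore used as a readout of recent pathway activity in leukocytes and stromal cells. Rela and Rel are the activating subunits of the canonical pathway. Relb pairs with the processed product of Nfkb2 in the non-canonical pathway.

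Of the 5 genes with a promoter window in the RefSeq table (build GRCm38.p6), 3 carried a form of the kappaB site on either strand, searched as GGG, any 2 bases and then TTTCC. The symbols of Nfkbiz and Relb were not matched. The windows with a match are shown because their genes were called higher in SVF than in epididymis. Against testis, Nfkbia and Nfkb2 were called higher in SVF and Rel was not. The Nfkbie window, like that of Rela, held no match and is not shown. Each line gives the 250 bases before a start site, 5′ to 3′ on the gene's own strand, with the match in capitals. The windows are chr12:55492648-55492897 (minus strand) for Nfkbia, chr19:46304487-46304736 (plus strand) for the first of 3 Nfkb2 windows, chr11:23770970-23771219 (minus strand) for Rel, and chr19:5637291-5637540 (plus strand) for Rela, which held no match and is given for comparison.
Nfkbia: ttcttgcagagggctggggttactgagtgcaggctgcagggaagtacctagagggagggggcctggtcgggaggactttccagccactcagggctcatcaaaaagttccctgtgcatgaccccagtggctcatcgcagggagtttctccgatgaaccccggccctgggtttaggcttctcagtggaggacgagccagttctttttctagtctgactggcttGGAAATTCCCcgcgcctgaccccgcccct
Nfkb2: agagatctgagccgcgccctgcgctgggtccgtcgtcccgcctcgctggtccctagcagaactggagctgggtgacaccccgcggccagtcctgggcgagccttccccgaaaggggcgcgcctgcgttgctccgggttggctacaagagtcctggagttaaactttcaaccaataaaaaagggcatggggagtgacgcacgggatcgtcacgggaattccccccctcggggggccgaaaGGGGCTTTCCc
Rel: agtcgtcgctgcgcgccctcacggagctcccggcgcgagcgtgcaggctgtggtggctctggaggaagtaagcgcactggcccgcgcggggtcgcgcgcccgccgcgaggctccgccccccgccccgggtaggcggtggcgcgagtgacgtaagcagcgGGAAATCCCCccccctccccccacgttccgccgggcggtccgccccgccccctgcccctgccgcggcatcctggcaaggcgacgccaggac
Rela: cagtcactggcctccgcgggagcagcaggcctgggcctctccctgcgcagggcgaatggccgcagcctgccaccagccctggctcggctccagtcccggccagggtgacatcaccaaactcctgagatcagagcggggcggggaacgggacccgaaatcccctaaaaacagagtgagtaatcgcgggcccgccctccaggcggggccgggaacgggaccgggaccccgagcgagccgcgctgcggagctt

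Counted from the start site, the match began at position -29 in Nfkbia, -11 in Nfkb2 and -91 in Rel. In Nfkbia and Rel it read on the opposite strand. The other Nfkb2 windows shared another match, GGGACTTTCC, at chr19:46305705-46305714, which begins at position 11 from the second start and -225 from the third. This form occurred in 1.63% of the 32851 windows of 300 bases in the table (250 before and 50 after a start), and in 512 of 27025 genes with a window (1.89%). The looser form, GGG and CC with any 5 bases between them, which includes every match of the stricter one, was present in all 7 windows of these 5 genes and in 50.8% of all windows. The AP-1 letters TGACTCA were found in the Nfkbie window alone, against 5.2% of all windows. GC content of the 7 windows ran from 58% to 75%, above the median of 52.7% over all windows. A match is only a match of letters, and no binding was measured here.

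In the comparison of testis with SVF, which asks what distinguishes these tissues, 4 of the 7 genes were called higher in SVF, against 16% of all named genes. None of the 7 was called higher in testis, against 20.7% of all named genes. The called genes were Nfkbiz, Nfkb2, Nfkbia and Relb. All 7 means were below 0. Their median, as log2 of testis over SVF, was -1.98, against 0.00 over all named genes. On each array the order from the lowest ratio began with Nfkbiz, Nfkb2, Nfkbia and Relb and ended with Rela. In whole tissue RNA, fewer cells of a type and less RNA per cell cannot be told apart.

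Among the inhibitors, Nfkbiz stood farthest from equal levels. It encodes IkappaB-zeta, an atypical nuclear IkappaB protein that is made on stimulation and acts with NF-kappaB on a subset of secondary response genes. Its log2 ratio of testis over SVF was -6.59 on array 1 and -6.73 on array 2. The mean of -6.66 ± 0.09 corresponds to 101-fold more signal in SVF and ranked 8 from the lowest of 18543 genes, with 0.0378% of genes lower. Both dye orientations gave nearly the same value.

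Nfkbia encodes IkappaB-alpha, the main cytoplasmic inhibitor, which NF-kappaB itself induces and which ends the response. Its ratio of testis over SVF was -2.96 and -3.00 on the arrays (mean -2.98 ± 0.03, 7.89-fold higher in SVF). Nfkbie encodes IkappaB-epsilon, another cytoplasmic inhibitor of the same kind. It gave -0.78 and -1.41 (mean -1.09 ± 0.44), so the second array passed the 2-fold line and the first did not, and it was not called.

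Nfkb2 encodes a precursor that holds Relb in the cytoplasm like an inhibitor and, once cut, becomes its partner subunit. Its ratios were -3.68 and -3.67 (mean -3.68 ± 0.01, 12.8-fold higher in SVF), the largest difference after Nfkbiz among the 7 genes. Relb gave -2.09 and -1.87 (mean -1.98 ± 0.15, 3.94-fold). Transcripts of both genes were thus higher in SVF on both arrays. Neither the proteins nor the cutting of the precursor was measured.

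The canonical subunits differed less between testis and SVF. Rel, which is best known in lymphoid and myeloid cells, gave -1.51 and -0.94 (mean -1.22 ± 0.40), and the second array fell just short of 2-fold. Rela, the broadly expressed main activating subunit, gave -0.70 and -0.20 (mean -0.45 ± 0.35, 1.37-fold). Neither was called, and Rela stood closest to equal levels of the 7 genes, with 32.8% of all named genes below it.

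**Figure D1:**
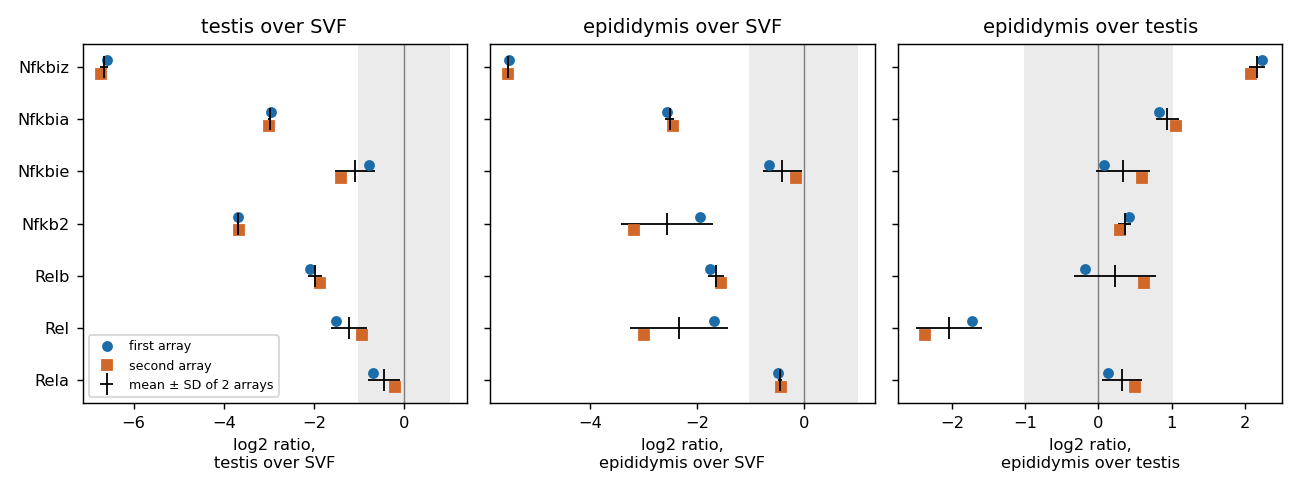
Log2 ratios of the 7 genes (rows) in the 3 tissue comparisons (panels), with the first array as a circle, the second as a square and the mean ± SD of both as a black cross; grey marks less than 2-fold. Nfkbiz stands at -6.66 and -5.53 against SVF, Rela within the grey band in every panel, and Rel alone below -1 for epididymis over testis.

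The next comparison set epididymis against SVF. Called higher in SVF were 5 of the 7 genes, against 8.68% of all named genes, and none was called higher in epididymis, against 10.2%. The called genes were Nfkbiz, Nfkb2, Nfkbia, Rel and Relb. The median log2 ratio of epididymis over SVF was -2.34 (-1.76 on array 1 and -2.45 on array 2), against 0.07 over all named genes. Both comparisons share the SVF RNA, so they are not independent of each other.

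Nfkbiz again had the lowest ratio, at -5.52 and -5.53 (mean -5.53 ± 0.01, 46.1-fold higher in SVF), and 0.0917% of named genes were lower. Nfkbia gave -2.56 and -2.45 (mean -2.51 ± 0.08, 5.68-fold), with little difference between arrays. Nfkbie gave -0.65 and -0.15 (mean -0.40 ± 0.36) and was not called. Among the inhibitors the size of the ratio ran from Nfkbiz over Nfkbia to Nfkbie.

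The arrays were less alike for Nfkb2, at -1.95 and -3.18 (mean -2.56 ± 0.87, 5.91-fold higher in SVF). Relb gave -1.76 and -1.55 (mean -1.65 ± 0.15, 3.15-fold). Rel gave -1.68 and -2.99 (mean -2.34 ± 0.92, 5.05-fold), the widest gap between arrays of any of the 7 genes in this comparison. Rela gave -0.48 and -0.42 (mean -0.45 ± 0.04, 1.37-fold). The first array thus gave ratios smaller in size than the second for Nfkb2 and Rel, while Rela and Relb differed little between them.

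Epididymis and testis were close to each other for most of these genes. Of 7 genes, 1 was called higher in epididymis, against 14.3% of all named genes, and 1 higher in testis, against 18%. Those shares are near the background. The median log2 ratio of epididymis over testis was 0.33, with 0.13 and 0.59 on the arrays, against 0.00 over all named genes. The 2 called genes went opposite ways.

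Nfkbiz was 4.47-fold higher in epididymis, at 2.23 and 2.08 (mean 2.16 ± 0.11). Nfkbia lay on the 2-fold line, at 0.83 and 1.06 (mean 0.94 ± 0.16), and was not called. Rel was 4.11-fold higher in testis, at -1.72 and -2.36 (mean -2.04 ± 0.45), and was the one gene of the 7 whose mean ratio was below 0. The other values were 0.07 and 0.59 for Nfkbie, 0.42 and 0.30 for Nfkb2, and 0.13 and 0.50 for Rela. Relb had opposite signs on the arrays, at -0.18 and 0.62. None of these 4 reached 2-fold on either array.

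A least-squares estimate over all 6 arrays gave each gene a level in each tissue relative to that gene's mean over the 3 tissues. The standard error (SE) of a difference comes from 4 residual degrees of freedom among hybridisations of 1 RNA sample per tissue. It leaves out the spread between animals, so the order of the levels describes these RNA samples and was not tested. The estimate for SVF was the highest for each of the 7 genes, with the smallest step to the next tissue, 0.35, for Rela (SE 0.15). For Nfkbiz the log2 levels were 4.06 in SVF, -1.12 in epididymis and -2.94 in testis, with an SE of 0.25 for a difference. For Nfkbia they were 1.83, -0.52 and -1.31 (SE 0.12). For both inhibitors the estimates ran in the order SVF, epididymis, testis, and the smallest step, 0.79 for Nfkbia, was larger than the hybridisation SE.

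Nfkb2 stood at 2.08 in SVF, -0.73 in epididymis and -1.35 in testis, and Relb at 1.21, -0.48 and -0.73. Rela stood at 0.30, -0.05 and -0.26. The steps from epididymis to testis were 0.61 for Nfkb2 (SE 0.31), 0.26 for Relb (SE 0.18) and 0.21 for Rela (SE 0.15), each less than 2 SE (0.62, 0.35 and 0.30), so these neighbours in the order are not separated even by the hybridisation error. Nfkbie had steps of 0.52 and 0.45 (SE 0.21). Rel followed another order, with 1.19 in SVF, 0.27 in testis and -1.46 in epididymis, and steps of 0.91 and 1.73 (SE 0.39). The ratios around the loop should sum to 0. The sum was -1.03 for Nfkbiz, 0.93 for Rel and 0.75 for Nfkb2, and within 0.47 in size for the other genes, against an SD of 0.57 over all named genes.

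**Figure D2:**
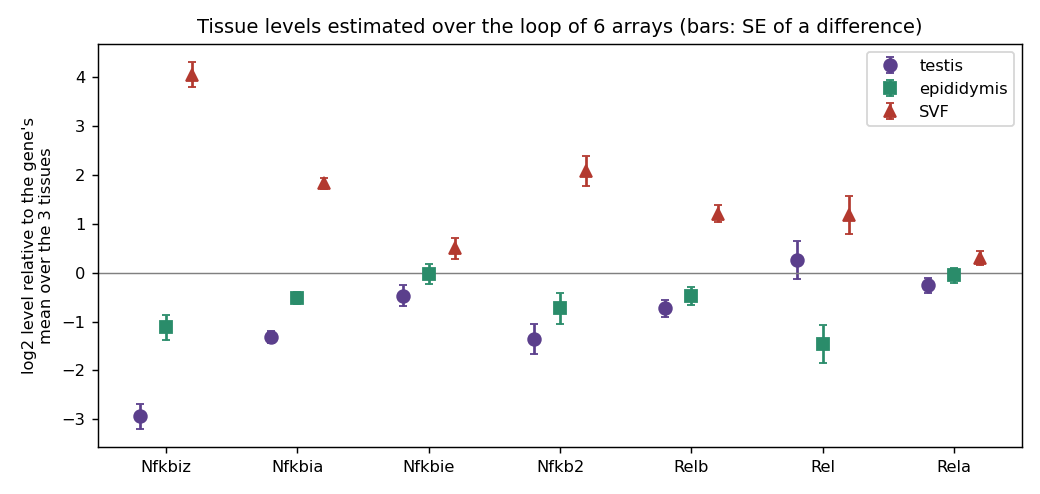
Least-squares log2 level of each gene in testis, epididymis and SVF relative to its own mean over the tissues, with bars of 1 SE of a difference between tissues. SVF is the highest level of each gene, from 0.30 for Rela to 4.06 for Nfkbiz, and Rel is the one gene with its lowest level in epididymis.

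Genes whose ratios lay closest to those of Nfkbiz over the 6 arrays were Reg3b, Ednrb, Egr1, Cxcl10 and Lilrb4a, at Euclidean distances in log2 units from 1.22 to 1.58. The chemokine gene Cxcl10, for example, had means of -7.32 for testis over SVF, -6.08 for epididymis over SVF and 2.35 for epididymis over testis. Closest to Nfkbia were Klf10, Plat, Arhgdib, Tril and Tubb2a, at distances from 0.49 to 0.55. These 6 values from 3 RNA samples separate genes only coarsely.

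The other genes of the pathway were read from 7 lists with 100 genes, of which 93 were measured. In testis against SVF, 54 were called higher in SVF and 1 in testis, with a median of -2.04. In epididymis against SVF the counts were 48 and 1, with a median of -1.45. Epididymis against testis gave 29 higher in epididymis and 8 higher in testis, with a median of 0.51. The background shares for calls on both arrays are those given above for each comparison. Calls from 1 array alone, given for some lists below, are more frequent over the 18543 named genes. In testis against SVF they numbered 4814 to 4876 for testis and 3968 to 4018 for SVF. In epididymis against SVF they numbered 3201 to 3216 for epididymis and 2670 to 2704 for SVF. In epididymis against testis they numbered 3668 to 3764 for epididymis and 4477 to 4505 for testis.

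Upstream of the dimers, the ligand genes Tnf and Il1b were higher in SVF in both comparisons. Tnf stood at -5.82 ± 0.08 for testis over SVF and -7.06 ± 0.30 for epididymis over SVF, and Il1b at -5.53 ± 0.39 and -6.14 ± 0.04. The B cell survival factor gene Tnfsf13b stood at -2.93 ± 0.34 and -2.61 ± 0.19. Of 9 ligand genes, 4 and 5 were called higher in SVF, and none differed between epididymis and testis by the size rule. Called from 1 array alone, 7 were higher in SVF than in testis without the second array. Between epididymis and testis, 1 was higher in epididymis without the first array and 3 in testis without the second.

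Of 14 receptor genes, 9 were called higher in SVF than in testis and 7 higher than in epididymis. The Toll-like receptor genes Tlr2 and Tlr7 and the lipopolysaccharide co-receptor gene Cd14 led both comparisons. Tlr2 stood at -4.71 ± 0.87 for testis over SVF and -5.35 ± 0.50 for epididymis over SVF, and Cd14 at -4.78 ± 0.29 and -4.35 ± 0.34. Against testis, 6 receptor genes were higher in epididymis, led by Tlr3 (2.21 ± 0.08) and Ltbr (1.85 ± 0.51). Tnfrsf13c was the 1 receptor gene called higher in testis (-1.74 ± 0.28), against 2 with either array left out. Without the second array, 1 receptor gene was called higher in testis and 1 higher in epididymis than in SVF.

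Among 13 measured adapter genes, which link receptors to kinases, 6 were called higher in SVF than in testis but 2 higher than in epididymis. Malt1 (-2.96 ± 1.17) and Bcl10 (-1.58 ± 0.25) were those called against epididymis. Irak1, a kinase of the interleukin-1 and Toll-like receptor complex, was 5.83-fold higher in SVF than in testis and 8.50-fold higher in epididymis than in testis. Adapters were called higher in epididymis than in testis for 8 of 13 genes, and Birc2 was the 1 higher in testis (-1.34 ± 0.22), against 2 with either array left out. Without the first array, 2 adapters were called higher in epididymis than in SVF.

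Of 9 measured kinase genes, Ikbke and Map3k14 were the 2 called higher in SVF, both against testis and against epididymis. The shares over all named genes were 16% and 8.68%. With so few genes, these counts are not read as a trait of the list. Ikbke, an inducible IkappaB kinase relative, stood at -3.23 ± 0.05 for testis and -2.03 ± 0.16 for epididymis. Map3k14, the kinase that starts Nfkb2 processing, stood at -2.49 ± 0.26 and -2.19 ± 0.65. The list medians were -0.35 and -0.37. Ikbke (1.88 ± 0.28) and Ikbkg (1.45 ± 0.34), the regulatory subunit of the IkappaB kinase complex, were the 2 called higher in epididymis than in testis. The share over all named genes was 14.3%. Without the first array, 5 kinase genes were called higher in epididymis than in testis and 2 higher in testis. The same reading called 3668 and 4477 of the 18543 named genes these ways. With either array left out, 1 kinase gene was called higher in epididymis than in SVF.

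Other IkappaB genes split by the size rule in the same comparisons. Bcl3 and Nfkbid, atypical nuclear proteins like Nfkbiz, were called higher in SVF, with Bcl3 at -3.83 ± 0.60 for testis and -4.11 ± 0.30 for epididymis, and Nfkbid at -3.89 ± 1.57 and -4.50 ± 1.41. Nfkbib and Nfkbil1 were not called in any comparison from both arrays. The means of Nfkbib still lay toward SVF, at -1.26 ± 0.97 and -1.29 ± 1.17, and those of Nfkbil1 did not (0.82 ± 0.21 and 0.50 ± 1.07). With 2-fold on the mean of both arrays, 3 of the 4 genes were called higher in SVF in each comparison with SVF. From 1 array alone, 1 of the 4 genes was called higher in testis than in epididymis with either array left out, and 1 higher in epididymis than in SVF without the first. Of 10 feedback regulators, 6 were called toward SVF against testis and 5 against epididymis. None was called away from SVF, against 1 higher in testis and 1 higher in epididymis without the second array. Zc3h12a, an RNase against cytokine transcripts, stood at -4.21 ± 0.68 and -3.72 ± 0.55. Tnfaip3, a ubiquitin-editing brake on the pathway, stood at -3.94 ± 0.39 and -4.21 ± 0.77.

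The 34 measured genes listed as NF-kappaB targets had 25 called higher in SVF in each of the comparisons with SVF, with medians of -3.32 against testis and -3.19 against epididymis. Il6 stood at -6.43 ± 0.90 and -7.75 ± 0.93. Lcn2, the siderophore-binding lipocalin, was the 1 target called the other way, at 1.90 ± 0.19 for testis and 3.60 ± 1.05 for epididymis. Of the 34, 11 were higher in epididymis than in testis, led by the prostaglandin synthase gene Ptgs2 (4.78 ± 0.19) and the urokinase gene Plau (4.58 ± 1.07). Nos2 (-2.28 ± 0.61) and Ccl4 (-1.45 ± 0.11) were among the 3 higher in testis. These counts were 17 higher in epididymis without the first array and 6 higher in testis without the second. Without the first array, 3 targets were called higher in epididymis than in SVF. From 1 array alone, 2 to 3 were called higher in testis than in SVF. Sums around the loop are not given for the list genes, and direct ratios need not match those over SVF. Ptgs2 stood at -5.77 ± 0.18 for testis over SVF and -0.05 ± 0.74 for epididymis over SVF. Ccl3 was called higher in epididymis than in testis (2.59 ± 0.29), yet stood at -4.77 ± 0.73 and -4.68 ± 0.81 over SVF.

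**Figure D3:**
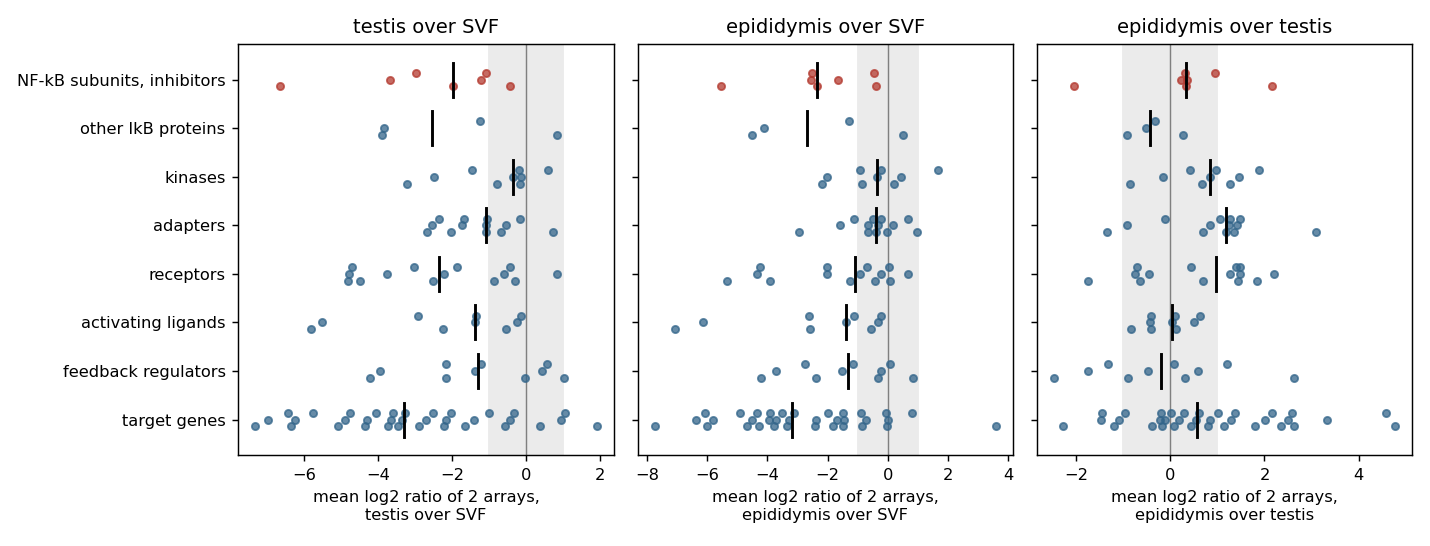
Mean log2 ratio over both arrays of each gene (points) in the NF-kappaB pathway lists (rows) for the 3 comparisons (panels), with the list median as a black bar and less than 2-fold in grey. Target genes have medians of -3.32 and -3.19 against SVF, while kinases have medians of -0.35 and -0.37.

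Leukocyte, mesenchymal progenitor and endothelial markers and immediate early genes had medians toward SVF, as these genes did. Germ cell and duct markers had medians away from SVF (4.32 and 0.49 for testis, 2.01 and 6.86 for epididymis). Of 16 measured macrophage and leukocyte markers, 14 were called higher in SVF than in testis (median -3.48, range -5.92 to -0.23) and 14 higher than in epididymis (median -3.16, range -4.74 to -0.63). Mesenchymal progenitor markers were called higher in SVF for 9 of 9 genes against testis and 7 of 9 against epididymis, and endothelial markers for 6 and 5 of 8. Of 14 immediate early genes, 11 and 9 were higher in SVF, with medians of -4.25 and -4.11. Over all named genes, 16% were called higher in SVF than in testis and 8.68% higher than in epididymis. In epididymis against testis, where Rel was lower and Nfkbiz higher, 5 leukocyte markers were higher in epididymis and 1 in testis (median 0.71). Of 12 germ cell markers, 7 were higher in testis (median -2.97). Over all named genes, 14.3% were called higher in epididymis and 18% in testis. Mesenchymal progenitor markers were higher in epididymis than in testis for 7 of 9 genes and in testis for none (median 2.09), and immediate early genes for 6 of 14 and none (median 0.99). The part of these cells and of the early response in the NF-kappaB values was not tested.

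Of the duct markers, 11 of 11 measured were called higher in epididymis than in SVF and than in testis, against 10.2% and 14.3% of all named genes. The list was chosen with earlier results of these data known, so this count is no independent check of the labels. Germ cell markers were also higher in epididymis than in SVF for 8 of 12 genes (median 2.01). Sycp3 and Prm2 were the germ cell markers not called in testis against SVF. Across named genes the turned arrays correlated with Pearson's r of 0.88 in the testis-SVF pair, 0.71 in the epididymis-SVF pair and 0.81 in the epididymis-testis pair. These r values run across genes, which are not independent replicates.

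**Figure D4:**
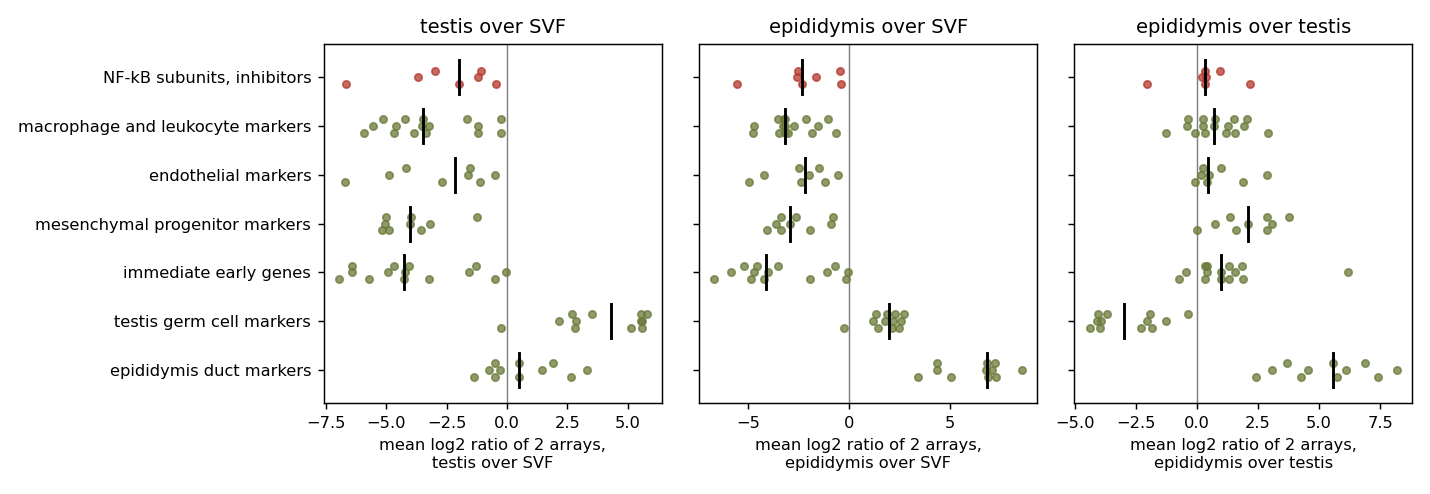
Mean log2 ratio over both arrays of each marker gene (points) by list (rows) for the 3 comparisons (panels), with the list median as a black bar. Leukocyte and immediate early genes lie toward SVF with medians from -3.16 to -4.25, as do the 7 NF-kappaB genes with medians of -1.98 and -2.34.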

How the data were processed

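The deposited table holds 1 value per probe and array for 6 arrays, read as log2 ratios of Cy5 over Cy3. How the authors corrected background, normalized, and chose log base and direction is not given in the sources used here, and spot intensities were not analysed here, so a signal near background cannot be recognised. As deposited, array medians ran from 0.005 to 0.114. The sign of the dye-exchanged arrays was turned by the order of the tissues in the array titles. As deposited, these arrays correlated at -0.86, -0.64 and -0.77 with their partners over all probes.

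Of 25344 probes, 20922 were named from the platform annotation (20456 by gene ID in the GRCm38.p6 gene table, 220 by symbol, 246 as annotated), giving 18543 genes, each the mean over its probes. Left unnamed were 160 probes with non-mouse symbols, 30 with several genes and 4232 without an annotation row. No value was missing. With 1 RNA sample per tissue no test between tissues exists, and the calls are a size rule, 2-fold on both arrays. The rule was tried on simulated data with normal noise at the median SD between arrays (0.33 to 0.37). Some genes here had a larger SD, up to 0.92 among the 7. The simulated data held no spread between animals and no signal near background. The number of arrays limits the precision.

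Named were all 7 measured genes, and of each pathway list up to 3 genes per comparison with the largest ratio meeting the rule and up to 2 meeting it against the list median. Genes given beyond this were chosen after their values were seen. The genes and lists were chosen with earlier results of these data known. Promoter letters were searched as a description, and the planned protein motif search was not run. The alternatives were array centring, the loop estimate, other fold rules, other choices of probe, genes measured on all 6 arrays, natural logarithms and each array left out. Calculations used Python 3.11.15 with pandas 2.3.3.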

Additional observations from a re-analysis of the deposited data

Results flagged for a closer look

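Among the 93 measured genes of the pathway lists, 8 had ratios to SVF of opposite sign in testis and epididymis on every array, and the difference was not tested. The share of all named genes meeting this condition was not counted, so the 8 are not read as a trait of the pathway. The condition sets no size, so ratios near equal levels can meet it. Examples are Tab2 in testis (-0.36 and -0.04) and Tax1bp1 in epididymis (-0.09 and -0.35). Of the 8 genes, 4 were lower in testis than in SVF but higher in epididymis. Irak1 stood at -2.54 for testis over SVF and 0.97 for epididymis over SVF, and the deubiquitinase gene Cyld, a brake on the pathway, at -2.17 and 0.83. Tab2, an adapter of the kinase encoded by Map3k7, stood at -0.20 and 1.68, and the interleukin-1 receptor accessory gene Il1rap at -0.61 and 0.06. For Il1rap the epididymis arrays, at 0.03 and 0.08, lay close to equal levels with SVF. Its direct ratios of epididymis over testis had opposite signs, at 0.16 and -1.09. The other way, Birc2 stood at 0.71 and -0.67, Map3k7 at 0.59 and -0.37, Tax1bp1, which works with Tnfaip3, at 1.03 and -0.22, and Tnip2, which binds Tnfaip3, at 0.42 and -1.51. None of the 7 NF-kappaB subunit and inhibitor genes met this condition.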

How the results depend on the processing

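Of the values of the 7 genes in 3 comparisons under 10 alternatives, 192 kept their direction and their side of the size rule or, where not called, moved by no more than the SD between arrays, 8 newly passed the rule, 5 no longer passed it, 5 moved by more than that SD, and none that was called changed sign. Centring each array moved no count of calls by over 1.5 times. Restricting to genes measured on all 6 arrays changed nothing, since no value was missing. Each of the 7 genes had 1 probe, so taking the probe with the largest or the smallest ratio could not change their values either. Each of these alternatives gave 21 of the 192 unchanged values, and that part was fixed in advance.

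With 4-fold on both arrays, 2 of the 7 genes were called higher in SVF than in epididymis and 0 higher in testis than in epididymis. The same rule called 2245 and 1411 of all named genes higher in testis and SVF, 500 and 675 higher in epididymis and SVF, and 926 and 1781 higher in epididymis and testis, against 3838, 2962, 1890, 1609, 2653 and 3342 at 2-fold. Of the pathway lists it called 10 higher in epididymis and 0 higher in testis in their comparison, and 0 higher in testis than in SVF. Read as natural logarithms, the median of the 7 genes was -2.86 for testis over SVF and -3.37 for epididymis over SVF, and 2 were called higher in epididymis than in testis, the second being Nfkbia. Pathway genes called higher in testis than in SVF numbered 3 with the loop estimate, the mean rule or natural logarithms and 2 with the probe of largest ratio. Those higher in epididymis than in SVF numbered 2, 2 and 3 with the loop estimate, the mean rule and natural logarithms.

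Calling from 1 array of a pair gave 2670 to 2704 named genes higher in SVF than in epididymis and 3201 to 3216 higher in epididymis. The median of the 7 genes for epididymis over SVF was -1.76 without the second array and -2.45 without the first. Nfkbia was called higher in epididymis than in testis without the first array, so that 1 to 2 of the 7 were. Of the 93 measured pathway genes, 4 to 7 were higher in epididymis than in SVF and 15 to 17 higher in testis than in epididymis. Higher in testis than in SVF were 2 to 5 of them. Of the 18543 named genes, 4477 to 4505 were higher in testis than in epididymis on 1 array. Those higher in testis than in SVF numbered 4814 to 4876. A count that needs both arrays can only stay or rise when 1 array is enough. The cause of the shift in the median was not tested. Rel and Nfkbie lay near the 2-fold line in testis against SVF. Rel passed on the first array alone (-1.51), Nfkbie on the second alone (-1.41), and both passed on the mean rule.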

Other observations

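The stricter kappaB form was also counted in the promoter windows of the other lists, as a description. Of the 25 target genes with a window, 7 held them (28%): Cxcl1, Cxcl2, Ccl20, Il6, Il1rn, Csf1 and Bcl2l1. Of 8 feedback regulators, 2 held them, Tnfaip3 and Cyld. The share was 1.89% of the 27025 genes with a window. Of the other pathway lists, 1 of 8 ligands (Ltb), 1 of 10 receptors (Tlr3), 2 of 15 adapters (Traf2 and Traf3), 1 of 8 kinases (Map3k7) and none of 4 other IkappaB genes held them. Of the marker lists, 1 of 12 germ cell markers did (Sycp1, 8.33%), and none of the 12 leukocyte markers, 10 immediate early genes, 5 endothelial, 3 mesenchymal progenitor and 10 duct markers with a window. Most lists are small, and no share was tested against another. The letters searched come from known kappaB sites of such target genes, so the shares are no independent evidence.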
